A study of Mus musculus with 7 samples.

Results

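The genes described here are the Zfp zinc finger genes that were expressed in LSK cells, the lineage-negative, Sca-1-positive, Kit-positive fraction of mouse bone marrow that holds blood stem cells and multipotent progenitors. A row was taken when its Ensembl identifier mapped to a protein-coding gene on an autosome whose symbol is Zfp followed by digits only, and when its mean normalized read count over all 7 libraries was at least 50. Of 357 such autosomal Zfp genes, 204 reached that level, out of 39179 identifiers in the table. The members were thus chosen by their level over all 7 libraries, and levels are given as a description without a test. All libraries came from mice of strain C57/BL6 aged 7 weeks that carried Vav1Cre, a transgene from which the Cre recombinase is made in blood cells generally. The 4 control libraries carried Vav1Cre alone, and the 3 libraries called Jmjd1c here were Jmjd1c f/f Vav1Cre, in which Cre acts on a floxed Jmjd1c gene. Jmjd1c encodes a JmjC-domain protein of the histone H3 lysine 9 demethylase family, and the comparison asked what its loss does to RNA levels in LSK cells.

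Zfp proteins carry C2H2 zinc fingers, short folds in which a pair of cysteines and a pair of histidines hold a zinc ion, and arrays of such fingers read DNA sequence or, in some members, RNA. Many also carry a KRAB box (Krüppel-associated box), which binds the corepressor TRIM28 and through it the H3K9 methyltransferase SETDB1, and KRAB zinc finger proteins are known for silencing transposable elements. KRAB zinc finger genes lie in tandem clusters of close relatives, so short reads from them can be lost or assigned to the wrong copy.

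The sequence that defines the family is shown for 4 members: Zfp553, the only member called different between the groups, Zfp213, the member with the highest log2 fold change, Zfp961, the lower member with the smallest adjusted p, and Zfp758, the member with the lowest transcript GC content, which was chosen after its values were seen. Each is the coding strand of 1 finger and the linker that follows it, 78 bases long, read 5′ to 3′ from the GRCm38 genome, and the capitals mark the cysteine and histidine codons. The Zfp553 finger lies at chr7:127235527-127235604 on the plus strand, that of Zfp213 at chr17:23558008-23558085 on the minus strand, that of Zfp961 at chr8:71968410-71968487 on the plus strand and that of Zfp758 at chr17:22375417-22375494 on the plus strand. All 4 lie in the last coding exon of their gene.
Zfp553: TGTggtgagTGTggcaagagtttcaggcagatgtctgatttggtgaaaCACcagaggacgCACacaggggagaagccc
Zfp213: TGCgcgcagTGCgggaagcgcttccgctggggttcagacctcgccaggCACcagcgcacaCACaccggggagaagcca
Zfp961: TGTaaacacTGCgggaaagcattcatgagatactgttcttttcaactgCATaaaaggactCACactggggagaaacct
Zfp758: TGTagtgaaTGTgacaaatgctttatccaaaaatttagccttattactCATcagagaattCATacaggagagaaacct
The 4 fingers keep the same spacing of capitals but differ in the bases between them. GC content was 53.8% in the Zfp553 finger, 69.2% in the Zfp213 finger, 42.3% in the Zfp961 finger and 33.3% in the Zfp758 finger. Over all finger-coding bases of each gene the order of the 4 genes was the same, with 56.2% in Zfp553, 61.6% in Zfp213, 42.3% in Zfp961 and 32.8% in Zfp758.

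The KRAB box was searched for as a pattern of 15 codon positions in each coding sequence, and a gene with at least 10 matching positions was counted as carrying it. Zfp553 did not match, and the stretches of the other 3 genes are shown with the matching codons in capitals. They lie at chr17:23559405-23559494 on the minus strand in Zfp213, at chr8:71965806-71965895 on the plus strand in Zfp961 and at chr17:22373655-22373744 on the plus strand in Zfp758, each 90 bases long and upstream of the exon that codes for the fingers.
Zfp213: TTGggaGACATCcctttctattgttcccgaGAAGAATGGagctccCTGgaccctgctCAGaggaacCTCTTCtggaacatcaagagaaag
Zfp961: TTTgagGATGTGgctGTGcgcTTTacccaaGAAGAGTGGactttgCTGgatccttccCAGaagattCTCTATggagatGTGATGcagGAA
Zfp758: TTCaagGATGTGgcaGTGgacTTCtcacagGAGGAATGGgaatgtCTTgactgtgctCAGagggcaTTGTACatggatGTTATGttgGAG
Zfp961 and Zfp758 matched at all 15 positions, whereas Zfp213 matched at 10. By this pattern 111 of the 204 members carried a KRAB box and 93 did not. 6 of the latter matched at 8 or 9 positions: Zfp189, Zfp286, Zfp446, Zfp597, Zfp180 and Zfp746.

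The finger pattern was found in 201 of the 204 members, with a median of 10 fingers per gene and a range from 0 to 36. Members with the KRAB pattern had a median of 12 fingers and members without it a median of 7. Zfp142 had the most fingers, 36, followed by Zfp236 with 30. No C2H2 pattern was found in Zfp330, Zfp839 and Zfp36, the last of which carries fingers of the CCCH type. Clustering in the genome also divided the family: 91 of 111 members with the KRAB pattern (82.0%) had another Zfp gene within 200000 bases, against 31 of 93 members without it (33.3%). Median transcript GC content was 41.5% in members with the KRAB pattern, 49.6% in members without it and 50.1% in all tested genes.

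Reads recovered per library ranged from 4303712 to 6436519, and 17538 to 18433 genes had at least 1 read. Normalized counts of Jmjd1c itself were 458, 466, 516 and 512 in control libraries 1 to 4 and 294, 244 and 254 in Jmjd1c libraries 1 to 3, with no overlap. Its log2 fold change was -0.89 ± 0.09 (SE; limma, adjusted p = 0.00407; exact two-sided permutation p = 0.0286, the smallest that 35 splits allow). Reads of a floxed gene can come from exons outside the deleted part, so the remaining level does not measure the deletion. The gate genes Kit and Ly6a (Sca-1) and 5 other stem and progenitor genes (Cd34, Flt3, Slamf1, Procr and Mecom) were detected in both groups, with summed normalized counts of 19222 to 22117 in controls and 19272 to 22370 in Jmjd1c libraries, and none of the 7 was called. RNA of other cell types was present in both groups. Basophil and mast cell genes summed to 5914 to 9068 in controls and 2279 to 4773 in Jmjd1c libraries (Ccl3 and Prss34 fell, 2 of 7 tested), and neutrophil genes to 9654 to 13011 and 6646 to 9612 (0 of 7 called, with Ly6g below 1 on average). B cell genes summed to 454 to 549 in controls and 395 to 436 in Jmjd1c libraries (0 of 5 called), and those 3 sums did not overlap. The other sums overlapped: plasma cell genes at 19301 to 29274 and 9980 to 30340 (Igha fell, 1 of 9), T and NK cell genes at 2215 to 2509 and 1941 to 2792 (0 of 4), macrophage genes at 2967 to 11169 and 2699 to 4544 (0 of 10), erythroid genes at 174 to 494 and 217 to 246 (0 of 7), and the lineage markers removed by the sort at 601 to 930 and 630 to 1045 (0 of 4), mostly Itgam. The part of these cells in the Zfp values was not tested, and in bulk RNA fewer cells of a type and less RNA per cell cannot be told apart. The labels do not say whether the libraries came from separate mice, so p-values measure only the spread between these libraries.

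Most Zfp genes were expressed at low to moderate levels. Among the 357 autosomal Zfp genes, 121 had a mean of at least 100, 83 lay between 50 and 100, 63 between 20 and 50, 72 were detected below 20 and 18 had no read in any library. The median over the 204 members was 128 normalized counts, 11 members reached 500 and 4 exceeded 1000. No member was without reads in any library, and together the members took 0.785% to 0.845% of all normalized counts. Just inside the limit were Zfp746 with a mean of 50.1, Zfp593 with 50.8 and Zfp420 with 50.8, and just outside it were Zfp658 with 49.0, Zfp605 with 48.6 and Zfp128 with 47.1. For 12 members only 1 of the groups had a mean of at least 50, among them Zfp213, Zfp593 and Zfp169 (the Jmjd1c group) and Zfp994, Zfp974 and Zfp420 (the controls).

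The most abundant member was Zfp706, a small protein with 1 finger, at 2937 ± 208 (SD, n = 4) in controls and 3189 ± 89.0 (n = 3) in Jmjd1c libraries. Zfp207, which codes for the spindle and kinetochore protein BuGZ, followed at 2508 ± 130 and 2311 ± 104. Zfp422 stood at 1588 ± 145 and 1662 ± 87.5, and Zfp266 at 1291 ± 90.9 and 1213 ± 78.0. In each of these 4 genes the ranges of the groups overlapped, and their log2 fold changes lay between -0.12 and 0.12. The next in level were Zfp263 (983 ± 76.7 and 869 ± 26.3), the SCAN-domain factor Zfp24 (785 ± 21.0 and 736 ± 23.4), Zfp638 (641 ± 48.3 and 544 ± 51.5) and Zfp652 (563 ± 41.2 and 625 ± 93.4). Levels of different genes were also set side by side per kilobase of a single annotated transcript, the one with the longest coding part. Counts are per gene, so this ranking is rough. Zfp207 was highest at 1552, followed by Zfp706 at 689, Zfp422 at 508, Zfp330 at 294 and Zfp263 at 288. The median member stood at 36.6 per kilobase and the lowest, Zfp846, at 3.96. Zfp330 and Zfp846 were named after their values were seen.

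Of the 204 members, 1 was called higher in Jmjd1c libraries and none lower at an adjusted p of 0.05 over all 12813 tested genes (limma), where the background was 1.51% of tested genes called higher and 0.289% called lower (1.80% in either direction). At an unadjusted p of 0.05 there were 9 members higher and 19 lower, with a background of 11.9% and 7.84%. In 11 members every Jmjd1c library lay above every control library and in 21 every one lay below, beside a background of 9.74% higher and 7.10% lower. The 32 members without overlap were 15.7% of the family, near the 16.8% of all tested genes. On recovered reads, edgeR called the same number of members, 1 higher and 0 lower (background 1.54% and 0.281%), while DESeq2 called 4 higher and 1 lower (3.69% and 0.913%).

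Zfp553 rose in Jmjd1c libraries. It codes for a protein with 12 finger patterns, and its gene lies at chr7:127233061-127238179 on the plus strand (GRCm38). Normalized counts were 99.2, 101.4, 92.1 and 78.7 in the 4 controls and 139.8, 145 and 168 in the 3 Jmjd1c libraries. All Jmjd1c libraries lay above all controls, a ratio of means of 1.63. The log2 fold change was 0.70 ± 0.13 (limma, adjusted p = 0.0343). The call was lost without any of 5 of the 7 libraries: the limma adjusted p was 0.0534, 0.0649 and 0.104 without control 1, 2 or 3, and 0.174 and 0.120 without Jmjd1c 2 or 3. It was also lost after correction for GC content and length, at 0.50 on the log2 scale and an adjusted p of 0.0910, and without the intensity trend, at an adjusted p of 0.146. The gene shares 70 exonic bases with Sept1 on the other strand, whose level was 823 ± 63.6 in controls and 849 ± 92.7 in Jmjd1c libraries, and the strand of counting is not given in the sources used here.

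Among the 11 members chosen for lying higher without overlap, the 5 highest log2 fold changes were those of Zfp553 and 4 genes that missed the threshold. Of these 4, Zfp213 lay above Zfp553. Zfp213 had 57.6, 47.1, 42.0 and 53.3 in controls and 70.3, 93.8 and 89.2 in Jmjd1c libraries, which is 0.74 ± 0.17 on the log2 scale (limma, adjusted p = 0.0538). Its control mean of 49.99 was under the minimum of 50, so it met the rule through the Jmjd1c libraries, where it is high. Zfp276 had 57.6, 66.4, 51.3 and 68.2 in controls and 81.9, 95.8 and 113 in Jmjd1c libraries, a log2 fold change of 0.66 ± 0.17 (adjusted p = 0.0627). In both genes Jmjd1c 1 was the lowest of its group and still lay above the highest control. The exons of Zfp213 share 1250 bases with those of Gm26695 on the other strand, which had 39.7 ± 5.79 in controls and 45.1 ± 2.66 in Jmjd1c libraries. The exons of Zfp276 share 920 bases with those of the DNA repair gene Fanca on the other strand, which had 156 ± 15.6 in controls and 200.3 ± 30.2 in Jmjd1c libraries. Zfp574 had 172, 161.7, 139.9 and 139 in controls and 189, 216 and 228 in Jmjd1c libraries (log2 fold change 0.46 ± 0.12, adjusted p = 0.0620). Zfp362 had 64.0, 76.0, 58.3 and 49.8 in controls and 80.3, 83.5 and 104 in Jmjd1c libraries (0.53 ± 0.18, adjusted p = 0.139). Jmjd1c 3 was the highest library for Zfp276, Zfp362 and Zfp574, as it was for Zfp553. DESeq2 on recovered reads called Zfp553, Zfp213, Zfp574 and Zfp276 higher. Transcript GC content of these 5 genes ran from 57.5% in Zfp362 to 59.5% in Zfp213, above the median of 45.1% for the family.

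**Figure D1:**
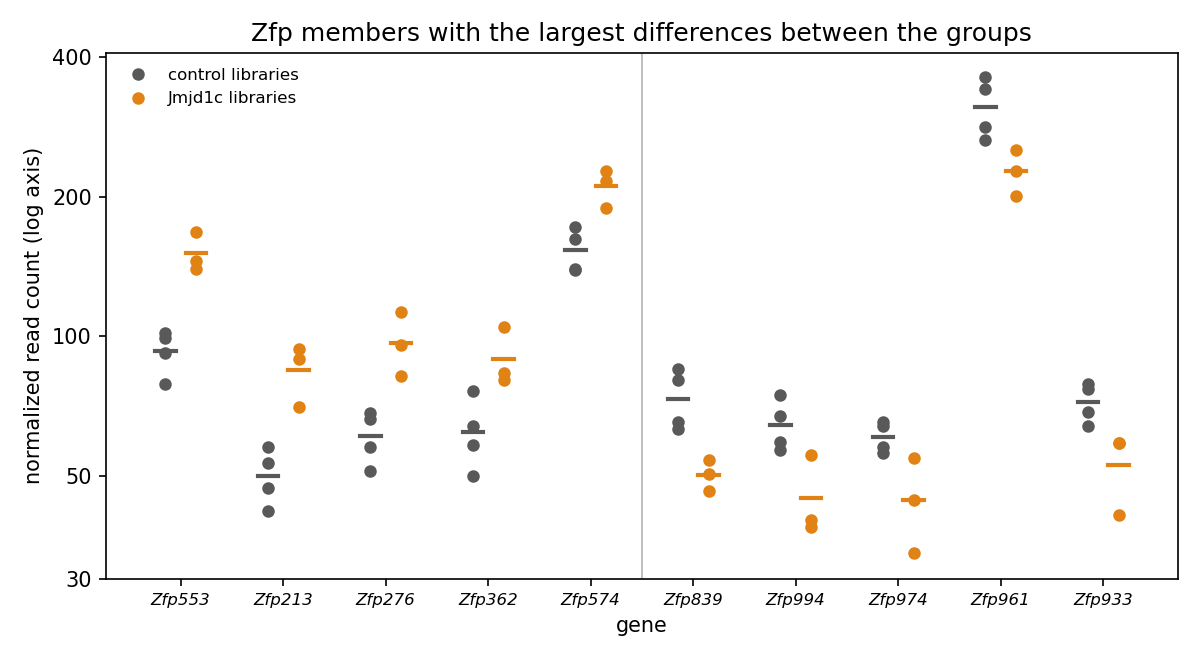
Normalized read counts (log axis) of the 5 Zfp members with the highest and the 5 with the lowest log2 fold changes among members without overlap. Points are libraries, 4 control in grey and 3 Jmjd1c in orange, and bars are group means; in each gene the groups do not overlap, and only Zfp553 passed the adjusted threshold.

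No member was called lower. Zfp961, a KRAB member and the one DESeq2 called lower, had 265, 342, 283 and 363 in controls and 252, 201 and 228 in Jmjd1c libraries, a log2 fold change of -0.46 ± 0.13 by limma (adjusted p = 0.0844). Zfp839, for which no finger pattern was found, had 84.8, 65.2, 80.4 and 62.96 in controls and 46.3, 50.5 and 54.0 in Jmjd1c libraries (-0.53 ± 0.17, adjusted p = 0.120). Zfp994 had 59.2, 56.7, 74.6 and 67.3 in controls and 55.4, 40.2 and 38.7 in Jmjd1c libraries (-0.53 ± 0.19, adjusted p = 0.155). In all 3 genes the groups did not overlap, but for Zfp994 and Zfp961 the highest Jmjd1c library lay just below the lowest control. Zfp994 and Zfp974 met the minimum of 50 through the controls, where they are high, with Jmjd1c means of 44.8 and 44.3. Zfp974 had 64.0, 65.2, 55.9 and 57.7 in controls and 54.6, 44.3 and 34.1 in Jmjd1c libraries (-0.47 ± 0.19, adjusted p = 0.203). Zfp933 had 68.8, 64.0, 76.9 and 78.7 in controls and 58.8, 58.7 and 41.1 in Jmjd1c libraries (-0.45 ± 0.18, adjusted p = 0.189). Jmjd1c 3 was the lowest library for Zfp994, Zfp974 and Zfp933, while Jmjd1c 2 was the lowest for Zfp961. All but Zfp839 carry the KRAB pattern, and these 4 had transcript GC contents of 37.9% to 42.0%, against 53.9% for Zfp839. Zfp961 shares 181 exonic bases with Cyp4f18 on the other strand, which had 452 ± 135 in controls and 297 ± 59.1 in Jmjd1c libraries. Zfp758, whose finger was shown for its low GC content, had 68.0, 70.0, 93.2 and 73.5 in controls and 54.6, 58.7 and 56.4 in Jmjd1c libraries (-0.41, adjusted p = 0.186).

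The fold changes of the family were small. Log2 fold changes ran from -0.53 to 0.74, so that none exceeded 1 in size. Those of 179 of 12813 tested genes did, and of 52 of the 9659 with a mean of at least 50, which are small shares too. The SD over the members was 0.221, below the 0.343 of all tested genes and the 0.271 of the 9659 tested genes with a mean of at least 50. Both of these sets hold values as low as -4.50. The median was -0.09, with quartiles of -0.20 and 0.08, against -0.01 for all tested genes and -0.0020 for those with a mean of at least 50. The latter had quartiles of -0.12 and 0.15, so the middle of the family was no narrower than theirs. Of the 204 members 137 had a log2 fold change below 0 (67.2%), as 51.5% of all tested genes did. The median SD of log2 values was 0.151 among controls and 0.138 among Jmjd1c libraries for members, 0.159 and 0.151 for all tested genes, and 0.131 and 0.123 for those with a mean of at least 50, so the members lay below the former and above the latter. Among controls the steadiest members were Zfp672 (259, 261, 256 and 257), the GC-rich-element binding factor Zfp148 and Zfp24. The most variable were Zfp708, Zfp831 and Zfp169, the last with 70.4, 43.4, 45.5 and 34.98.

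Most of the downward shift lay in the members with the KRAB pattern. Their median log2 fold change was -0.16 (n = 111, SD 0.189), and 92 of them were below 0 (82.9%). Members without the pattern had a median of 0.01 (n = 93, SD 0.221), with 45 below 0 (48.4%). Among members with the pattern, none was called in either direction, and 3 lay higher and 14 lower without overlap, which is 2.70% and 12.6% of the set beside 9.74% and 7.10% of all tested genes. At an unadjusted p of 0.05 there were 2 higher and 13 lower. Without the pattern, 1 was called higher, 8 lay higher and 7 lower without overlap (8.60% and 7.53% of the set), and 7 and 6 passed the unadjusted p, whose background was 11.9% higher and 7.84% lower. Members of a cluster share sequence and possibly reads, so they are not independent, and no test was made between the sets.

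**Figure D2:**
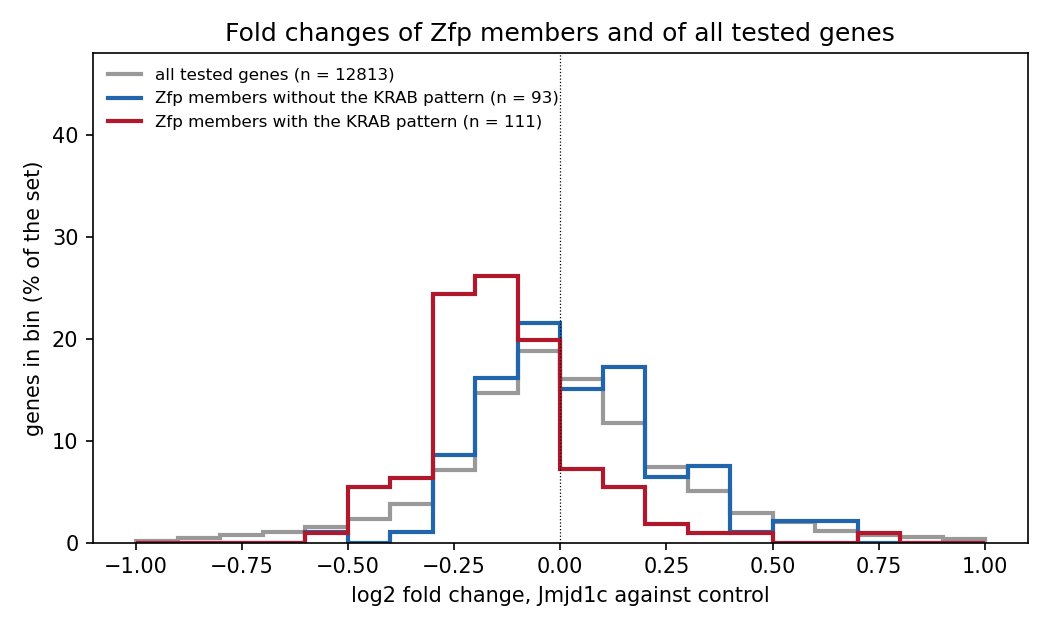
Share of genes (percent of each set) by log2 fold change of Jmjd1c against control libraries, in bins 0.1 wide, for the 111 members with the KRAB pattern, the 93 members without it and all 12813 tested genes. The curve of the members with the pattern lies to the left of the others, with a median of -0.16, and genes beyond the axis range are not drawn.

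The same shift was read library by library as the median log2 deviation of the members from the midpoint of the group means. For members with the KRAB pattern it was 0.06, 0.06, 0.10 and 0.08 in controls 1 to 4 and -0.01, -0.06 and -0.13 in Jmjd1c 1 to 3. All controls lay above all Jmjd1c libraries, and Jmjd1c 3 lay farthest down. For members without the pattern the values were 0.00, 0.02, -0.01 and -0.02 in controls and 0.01, 0.02 and -0.02 in Jmjd1c libraries, which overlapped. Since the midpoint was computed from the same groups, the groups of each set nearly balance by construction, and what the values add is the spread of libraries within a group.

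**Figure D3:**
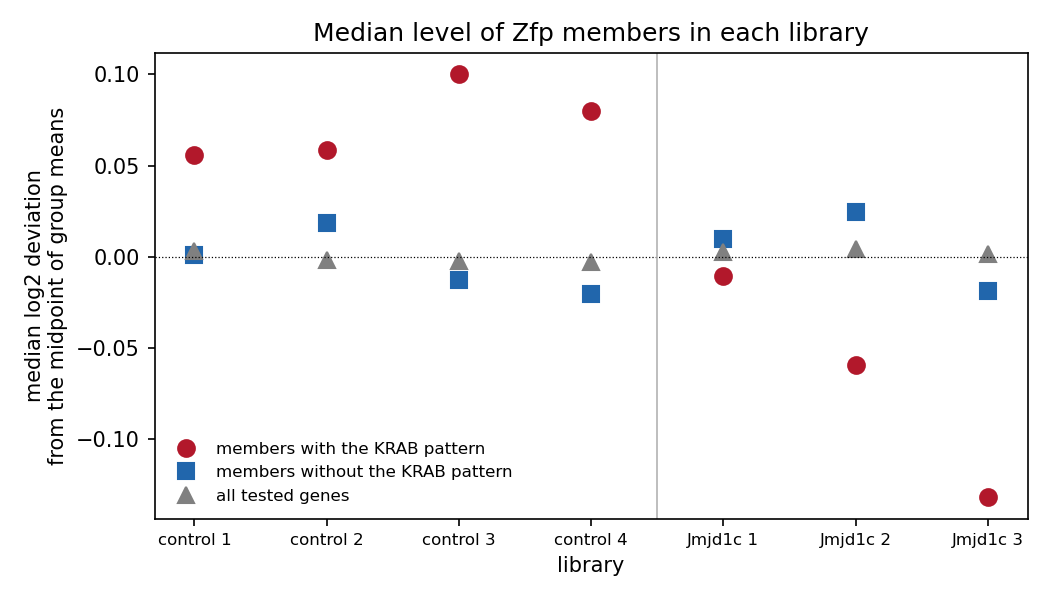
Median log2 deviation from the midpoint of the group means in each of the 7 libraries, for members with the KRAB pattern (circles), members without it (squares) and all tested genes (triangles). The circles of the 4 controls lie between 0.06 and 0.10 and those of Jmjd1c 1 to 3 at -0.01, -0.06 and -0.13, while squares and triangles stay near 0.

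Fold change moved with the GC content of the transcript, in the family and in other genes. Across the 204 members, Pearson's r between log2 fold change and GC content was 0.57 (Spearman's rho 0.52), against 0.27 (0.30) across 12677 tested genes with an annotation. Within the sets it was 0.49 (0.34) for the 111 members with the KRAB pattern and 0.47 (0.47) for the 93 without. These correlations are across genes that share the same 7 libraries. The correlation with transcript length was 0.02 and with the number of fingers -0.19. Library by library, the correlation of members' deviations with GC content was -0.21, -0.09, -0.44 and -0.48 in controls 1 to 4 and 0.10, 0.30 and 0.50 in Jmjd1c 1 to 3. The opposite signs of the groups follow from taking deviations from the midpoint of the group means, so the values show only how libraries differ within a group: control 2 and Jmjd1c 1 had the weakest correlations.

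Among genes of like GC content, the members' medians lay below those of all tested genes in the bands under 50% and above them at 55% and more. Below 40% GC the median log2 value was -0.20 for 43 members, 37 of them with the KRAB pattern, and the 598 tested genes in that band had -0.13. From 40% to 45% the medians were -0.14 for 59 members and -0.07 for 2306 tested genes. From 45% to 50% they were -0.10 for 43 members and -0.03 for 3386 genes. From 50% to 55%, in contrast, both medians were near 0 (-0.00063 for 33 members, 0.01 for 3426 genes). At 55% and above, the 26 members had a median of 0.17, above the 0.12 of 2961 genes, and 4 of the 26 were below 0. Within the 3 bands under 50%, members with the KRAB pattern had medians of -0.21, -0.16 and -0.18 and members without it -0.10, -0.04 and -0.08. From 50% to 55% the medians were -0.01 for the 11 members with the pattern and 0.02 for those without it. At 55% and above they were 0.16 for the 4 with the pattern and 0.21 for those without it. After each library was corrected for GC content and length across all genes, the median was -0.04 for all members and -0.07 for members with the KRAB pattern, and the per-library medians of the latter were 0.01, 0.06, 0.05 and 0.02 in controls and -0.00037, -0.03 and -0.05 in Jmjd1c libraries. The correction left 6 members higher and 10 lower without overlap (background 9.32% and 6.06%), and none was called. Whether GC content itself or a difference in the cells moved these values was not tested.

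**Figure D4:**
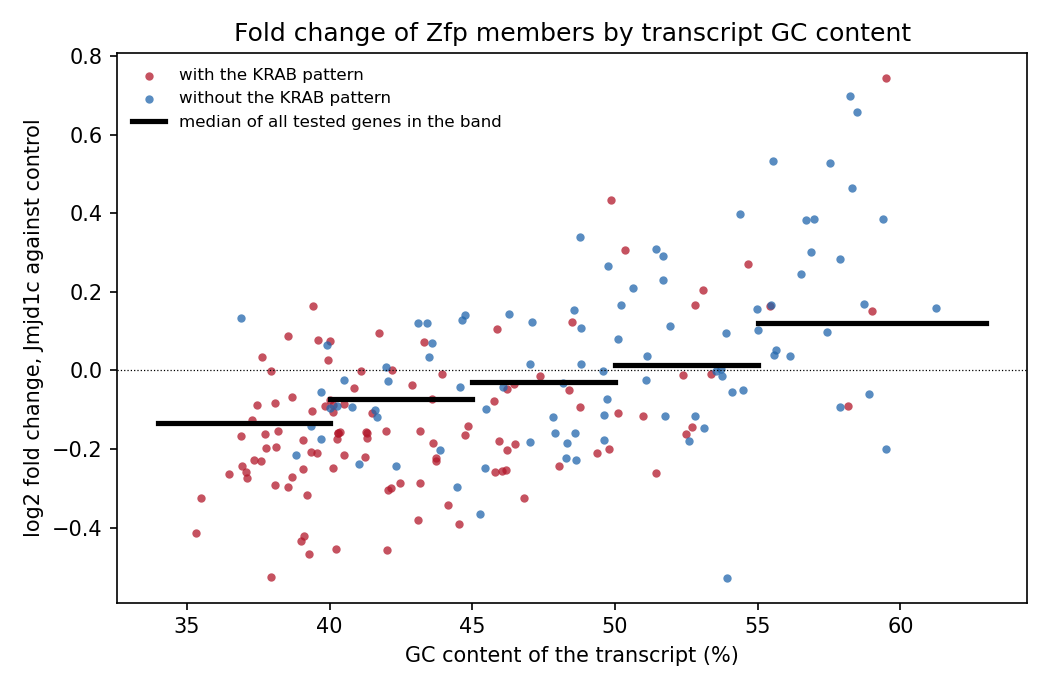
Log2 fold change of each of the 204 members against the GC content of its transcript (percent), with members carrying the KRAB pattern in red and the others in blue. Black bars give the median of all tested genes in each GC band, from -0.13 below 40% to 0.12 at 55% and above, and the points follow the same slope, with more of the red points at low GC content.

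By chromosome, members were most numerous on chromosome 7 with 49, followed by chromosome 17 with 27, chromosome 13 with 18 and chromosome 8 with 13. The median log2 fold change was -0.06 on chromosome 7, where 27 members carried the KRAB pattern, and -0.10 on chromosome 17, where 25 did. It was -0.18 on chromosomes 13 (15 with the pattern) and 8 (9 with the pattern). On chromosome 9 all 11 members carried the pattern, and 10 of them were below 0 with a median of -0.16. On chromosome 18 none of 10 members carried it and the median was -0.01. On chromosome 11, where 3 of 11 members carried it, the median was -0.16, so the medians did not simply follow the share of KRAB members.

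Members that work in RNA metabolism and at the ribosome showed no call. Of 9 listed genes, 7 were members (Zfp598 and Zfp622 were not), and over the 9 tested genes the median log2 fold change was 0.12. Zfp36, which codes for tristetraprolin, a protein that binds AU-rich elements and speeds mRNA decay, had 441, 463, 565 and 519 in controls and 482, 636 and 352 in Jmjd1c libraries. Its groups overlapped, and Jmjd1c libraries spanned a wider range than controls. The splicing-linked factor Zfp830 was the only one of the 9 without overlap, with 307, 292, 312 and 309 in controls and 285, 275 and 259 in Jmjd1c libraries (-0.16 ± 0.08, limma, adjusted p = 0.292). Of all tested genes, 9.74% lay higher and 7.10% lower without overlap. Zfp638, an RNA- and DNA-binding protein linked to silencing of unintegrated retroviral DNA, had 593, 606, 676 and 688 in controls and 535, 599 and 497 in Jmjd1c libraries (-0.24, adjusted p = 0.166). Its groups overlapped by Jmjd1c 2 alone. Log2 fold changes were 0.12 for Zfp106, 0.03 for Zfp326, which belongs to the DBIRD complex at polymerase II transcripts, 0.16 for the double-stranded RNA binding protein Zfp346 and 0.30 for Zfp593, a factor of ribosome assembly, all with overlap.

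Of 11 listed partners of chromatin complexes, 7 were members, and none of the 9 tested genes was called (median 0.08). The 1 gene of the 9 without overlap was Zfp219, too low to be a member, with 31.4 ± 2.98 in controls and 59.0 ± 20.9 in Jmjd1c libraries (0.84 ± 0.24, limma, adjusted p = 0.0902). The background without overlap was 9.74% higher and 7.10% lower. Zfp521, a protein with 27 finger patterns that is known in blood stem and progenitor cells and binds the NuRD corepressor, had 169, 138, 228 and 149 in controls and 209, 198 and 135 in Jmjd1c libraries. Its log2 fold change of 0.08 ± 0.19 was well within the spread of either group. Zfp592 and Zfp687, which join ZMYND8 in a complex, had 0.11 and 0.24, and Zfp644, a partner of the G9a and GLP methyltransferases, had -0.10. Zfp217 (-0.12), a CtBP and CoREST partner, Zfp296 (-0.20) and Zfp516 (-0.01) also overlapped between the groups.

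Of 17 listed genes, mostly for transcription factors and ubiquitin or SUMO proteins, 16 were members and Zfp384 was not. None was called, and the median was 0.07. Zfp574 and Zfp335 were the 2 without overlap, both higher, beside 9.74% higher and 7.10% lower of all tested genes. Zfp335, a nuclear factor needed for T cell maturation and brain growth, had 136, 133, 131 and 146 in controls and 158, 183 and 195 in Jmjd1c libraries (0.38 ± 0.11, limma, adjusted p = 0.0940). Every Jmjd1c library lay above the highest control. Its exons share 1107 bases with those of Pcif1 on the other strand, which was also higher without overlap (737 ± 38.7 and 843 ± 31.2). The promoter-binding factor Zfp143 had a log2 fold change of 0.14, Zfp148 of 0.07 and the pluripotency-linked factor Zfp281 of 0.12. Zfp410, an activator of the remodeller gene Chd4, had -0.11, the SUMO ligase Zfp451 -0.10 and the ubiquitin ligase Zfp91 -0.23. The others were Zfp131 at -0.18, Zfp207 at -0.12, Zfp292 at -0.02, Zfp319 at 0.53, Zfp407 at -0.03, Zfp652 at 0.14, Zfp710 at 0.17 and Zfp740 at 0.23. Zfp319 had the widest spread of these, with 68.0, 89.3, 45.5 and 56.0 in controls and 56.3, 114 and 117 in Jmjd1c libraries, where Jmjd1c 1 lay among the controls and the other Jmjd1c libraries above them. Among 4 listed KRAB members with a known target, 2 were in the family and none was called. Zfp445, which protects imprints, had 89.6, 129, 141 and 109 in controls and 124, 133 and 109 in Jmjd1c libraries. Zfp809, which silences endogenous retroviruses through their primer binding site, had 111, 144, 81.6 and 108 in controls and 108, 132 and 77.5 in Jmjd1c libraries. For Zfp445 all 3 Jmjd1c values lay within 89.6 to 141, the range of the controls. The Zfp809 groups overlapped as well.

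The partners through which KRAB proteins act showed no call either: of 21 tested genes 0 were called, 15 were above 0 and 6 below, and the median log2 fold change was 0.10. Trim28, the corepressor bound by the KRAB box, had 321 ± 35.6 in controls and 336 ± 42.7 in Jmjd1c libraries (0.06, limma, adjusted p = 0.789), and the methyltransferase Setdb1 had 437 ± 30.6 and 458 ± 31.3 (0.07, adjusted p = 0.683). Both differences were below the spread between libraries. The groups did not overlap for 4 higher genes, Dnmt1, Hells, Pphln1 and Chd4, and 2 lower ones, Trim33 and Fam208a, out of the 21, beside 9.74% higher and 7.10% lower of all tested genes. The maintenance DNA methyltransferase Dnmt1 had 2094, 2226, 1895 and 1821 in controls and 2562, 2782 and 2252 in Jmjd1c libraries (0.33 ± 0.09, limma, adjusted p = 0.0749). The remodeller Hells had 718, 669.8, 569 and 721 in controls and 820.0, 905 and 739.7 in Jmjd1c libraries (0.30 ± 0.10, adjusted p = 0.135). In both genes Jmjd1c 2 was highest and Jmjd1c 3 lay closest to the controls. Fam208a, which codes for the HUSH subunit TASOR, had 189.7 ± 19.4 and 146 ± 19.01 (-0.37 ± 0.12, adjusted p = 0.136).

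Related families were compared at the same minimum level. The 24 Zbtb genes, whose fingers are joined to a BTB domain in place of a KRAB box, lay at a median of 0.06 with 7 below 0, and 1 of them, Zbtb45, rose from 38.4 ± 4.76 to 92.5 ± 28.0 (1.21 ± 0.21, limma, adjusted p = 0.0317; background 1.51% called higher). Its control mean was under the minimum of 50, so it entered the set through the Jmjd1c libraries, where it is high. The 12 Zscan and Zkscan genes, whose products carry a SCAN domain, had a median of -0.08 with 7 below 0 and none called. With so few genes in these sets no difference from the Zfp members was tested.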

How the data were processed

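RNA-seq of 7 LSK libraries (4 control, 3 Jmjd1c) was analysed. Libraries were made with an ultra-low-input SMARTer kit from Trizol RNA, per the labels' protocols. Per the submitters' processing notes, build mm10 was used with STAR, Trim Galore 0.2.8, HTSeq 0.6.1p1 and DESeq 1.18.0; neither the strand setting nor the treatment of reads with several matches is stated there. The deposited values are a normalized signal, gene counts divided by size factors by the authors: 100% of values were whole multiples of a step of each library (tolerance 0.01), which gave the recovered reads.

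Of 39179 identifiers 37607 had a symbol and 37693 an entry in GENCODE M21 (GRCm38, the same assembly as mm10). Transcript length and GC content are those of a single annotated transcript per gene, the one with the longest coding part. Values were tested as log2(value + 1) with limma 3.58.1 (intensity trend, R 4.3.3) over the 12813 genes with at least 10 in at least 3 libraries, with Benjamini-Hochberg adjustment over all of them; fold changes are on that scale and understate low genes. All 204 members passed this filter. Their mean is part of the rule, so passing is no result. Alternatives were other pseudocounts, filters, scalings and thresholds, a replicate block, a spline correction for GC content and length, each library left out, and edgeR 4.0.16 and DESeq2 1.42.0 on recovered reads. The fit was tested on simulated data, where it called 44% of 1.5-fold and 67% of 2-fold changes in the right direction. A gene that was not called is therefore not shown to be unchanged. Fingers and KRAB boxes were sought as codon patterns in the coding sequences of GENCODE transcripts, which replaced a planned search of protein sequences; exons of 72 members overlap those of another gene.

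The members and lists were chosen with earlier results of these data known. Named were Jmjd1c, members past the threshold, the 5 highest and 5 lowest log2 fold changes among members without overlap, the 8 of highest mean, the 3 on each side of the minimum, the listed members, the 3 of highest and of lowest SD among controls, and the 2 smallest p of the KRAB partners. Other genes given beside a count were chosen after their values were seen. Intervals from reads would cover counting error only.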

Additional observations from a re-analysis of the deposited data

Results flagged for a closer look

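In the 4 control libraries, 3 of 55 groups of values tested held a library far from the others (Dixon's criterion), where chance alone gives about 1 in 20. The Zfp members took 0.801% of all normalized counts in control 4, the lowest value, against 0.838% to 0.845% in the other controls. The summed normalized counts of macrophage genes were highest in control 4, at 11169, against 2967 to 4271 in the others. T and NK cell genes were highest in control 1, at 2509, against 2215 to 2252. Whether the macrophage RNA in control 4 bears on its lower Zfp share was not tested.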

How the results depend on the processing

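With 4 and 3 libraries the calls rested on few values. Zfp members called higher numbered 0 without the intensity trend, with the replicate block and with the GC and length correction, 4 with DESeq2 and 5 at an adjusted p of 0.1; leaving out each library gave 0 to 4, with 0 without control 1, 2 or 3 or Jmjd1c 2 or 3 and 4 without Jmjd1c 1. Those called lower numbered 1 with DESeq2 and 1 at 0.1, and 0 with any library left out. No share of all tested genes was counted at 0.1, so the counts at that threshold stand without a background. Calls over all tested genes were 0 higher and 0 lower without the trend, 16 and 8 with the GC and length correction, 55 and 17 without control 1, 0 and 3 without control 2, control 3 or Jmjd1c 2, 1 and 8 without Jmjd1c 3, and 514 and 117 without Jmjd1c 1. Jmjd1c itself had -0.89 without the trend (limma, adjusted p = 0.117).

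The median log2 fold change of the members was -0.041 with the correction and -0.11 to -0.051 with a library left out, nearest to 0 without Jmjd1c 3, and the SD was 0.18 and 0.203 to 0.268. For members with the KRAB pattern the median was -0.069 with the correction and -0.17 to -0.13 with a library left out; for those without it, -0.011 with the correction, -0.013 with quantile normalization and -0.0080 to 0.043 with a library left out.

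Of the 41 named genes followed through these settings 37 never changed sign. Some of the 41 had groups without overlap, among them the members named for the highest or lowest log2 fold changes. Such a gene cannot change sign when a library is left out. For these genes the fits with a library left out were therefore no test of the sign. Other named members were not followed, among them some near 0: Zfp292 (-0.02), Zfp407 (-0.03), Zfp516 (-0.01) and Zfp326 (0.03). The count therefore does not cover all named genes. Zfp809 had 0.047 with the correction and -0.25 to 0.13 with a library left out; the ranges were -0.048 to 0.17 for Zfp445, -0.036 to 0.28 for Zfp521 and -0.26 to 0.16 for Zfp36. The cause of these moves was not tested.

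Same-numbered libraries did not deviate together (correlations of -0.15, -0.0021 and 0.017), and the main fit took the replicate number as a name only. Differently numbered pairs ran from -0.17 to 0.32, the highest being control 4 with Jmjd1c 1. Whether libraries shared a batch was not tested. The replicate block gave 7 genes higher and 7 lower over all tested genes, and Zfp553 had a limma adjusted p of 0.144 with it.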
